A study of Mus musculus with 8 samples.

Results

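The 80 protein-coding genes of the cytoplasmic ribosome were followed through 8 libraries of ribosome-bound RNA from embryonic mouse neurons. They are 49 genes of the large subunit and 31 of the small subunit, among 38924 genes in the count tables. Members were chosen by symbol, through the Ensembl identifier: Rpl or Rps with a number and at most a suffix a, x or l, Rplp0 to Rplp2, and Rpsa. Genes with a pseudogene biotype were left out, which removed 2 genes whose symbol met the rule, Rps4l and Rpl6l. The rule itself uses symbols and biotypes only. The symbols Rps3a1, Fau, Rpl36al, Rpl22l1, Rpl7l1 and Rps27rt are close to the rule but outside it.

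The libraries hold dopamine neuron RNA from midbrain, with 2 datL libraries, 2 datM libraries, 1 Lateral library and 1 Medial library, and serotonin neuron RNA from hindbrain, as 2 libraries. All came from bacTRAP mice, which make a tagged ribosomal protein from the regulatory region of a chosen gene, so that the ribosomes of cells using that gene can be pulled down with their RNA. The series design text names lines driven by the dopamine transporter gene and by the serotonin transporter gene, while the library descriptions name the dopamine transporter line (Slc6a3 JD1640) for all 8 libraries, the serotonin libraries included. Per the labels, embryos were dissected at E15, and midbrain called E18 was dissected at E15 and kept for 3 days in vitro. This text is identical for all libraries, and only the headers of the Lateral and Medial tables carry an E18 mark. No strain, sex or treatment is given in the labels used here, the letters L and M are not spelled out, and nothing says whether replicates came from separate animals or pools. P-values therefore reflect the variation among the libraries alone, and that may be technical.

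Ribosomal proteins are structural parts of the ribosome, and their mRNAs are among the most abundant of growing cells. Many of these mRNAs begin with a C followed by an unbroken run of pyrimidines, the terminal oligopyrimidine (TOP) motif, through which the mTOR kinase and Larp1 adjust their translation as a group. In bacTRAP lines of the usual construction the tag is carried by Rpl10a, a protein of the large subunit. Reads of a tagged copy and of the cell's own Rpl10a are not separated in a table of gene counts.

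Windows near the annotated starts of some genes that recur in the results below are shown here, because many mRNAs of the family begin with a TOP motif. Each window has 30 bases, lies on the plus strand, the strand of its gene, and comes from RefSeq (GRCm38.p6). Capitals mark a run of at least 8 C or T that begins with C, searched on the gene's strand within 50 bases of the annotated start.
Rpl10a, chr17:28328572-28328601: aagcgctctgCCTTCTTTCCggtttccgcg
Rpl13, chr8:123102324-123102353: cgtgacgtcaCTTCCCTTTCgcctgatttt
Rplp2, chr7:141447637-141447666: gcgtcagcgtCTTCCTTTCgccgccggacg
Rpl4, chr9:64173403-64173432: aggagcgtggCCTTCTCCTCTCCCCgtcat

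The run in Rpl10a has 10 bases and begins at position 17 relative to the annotated start. That in Rpl13 has 10 and begins at -16, that in Rplp2 has 9 and begins at -4, and that in Rpl4 has 15 and begins at 26. No run shown begins at the annotated start itself, so none is shown to be a TOP motif. Of other genes that recur below, Rps2 had a run at 40, and Rps27l had one at -22 for 1 of its 2 starts. Rpl10a has 2 annotated starts, and only the one shown had such a run within reach. Rpsa had none in its window. RefSeq start windows were matched for 60 members, and 56.7% of them held such a run within 25 bases of the start, beside 18.5% of 27025 genes with a window. Within 50 bases the shares were 85% of members and 31.5% of genes. The length of 8 and these distances were picked after 12 combinations of run length (5 to 8 bases) and distance (10, 25 or 50 bases) had been looked at, and the members' share was above that of all genes in all 12. A match is a description of the letters, not a mapped start.

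The tables held between 22417739 and 33216710 counts per library, spread over 11708 to 15656 genes with at least 1 count. The file headers place datL and datM in a run folder with October in its name and the other libraries in lane 8. Slc6a3, the dopamine transporter, was at 31.9 to 740 CPM (a gene's count scaled to the library total) in the 6 dopamine libraries (740 is Lateral) and at 0.679 and 0.171 CPM in the serotonin libraries. The 6 listed dopamine neuron genes together were less clear: they summed to 339 and 713 CPM in datL, 1576 and 963 CPM in datM, 1851 CPM in Lateral and 1315 CPM in Medial, against 391 and 420 CPM in the serotonin libraries. The first datL library thus lay below both serotonin libraries. Among these genes Slc18a2, the vesicular transporter of both transmitters, was at 0 and 10.2 CPM in datL and 49.5 to 166 CPM in the other dopamine libraries, against 275 and 305 CPM in the serotonin libraries. Slc6a4, the serotonin transporter, was at 0 counts in datL and datM, 5.27 CPM in Lateral and 3.93 CPM in Medial, against 1196 and 1075 CPM in the serotonin libraries. Tph2, the serotonin-synthesis enzyme of neurons, was at 16.8 CPM in Lateral and 41.5 CPM in Medial beside 2909 and 2189 CPM in the serotonin libraries. The 5 listed serotonin neuron genes together summed to 422 and 71.0 CPM in datL, 37.0 and 11.8 CPM in datM, 235 CPM in Lateral and 131 CPM in Medial. In the serotonin libraries they summed to 5033 and 4201 CPM. Gata3, from this list, was at 422 and 68.8 CPM in datL and 210.1 CPM in Lateral, against 601 and 602 CPM in the serotonin libraries. The source of these counts in dopamine libraries was not tested. Lateral and Medial share lane 8 with the serotonin libraries.

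Within the family, levels per length of exon ranged over several orders of magnitude. Averaged over the 8 libraries, Rps27 stood highest at 3031 CPM per kb, followed by Rpl32 at 2076 and Rplp1 at 1506 CPM per kb, and Rpl14 was at 1280 CPM per kb. Rps27 belongs to the small subunit, Rpl32 and Rpl14 to the large subunit, and Rplp1 to the acidic stalk that recruits elongation factors. These values divide by the exonic length of the annotation, 255 bases for Rps27, so a short annotated model raises them.

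At the low end, Rpl10l had no count in any library, Rpl39l had 2 counts in the first serotonin library only, and Rpl3l had 1 count in the second datL library. They are copies of Rpl10, Rpl39 and Rpl3, with expression known mainly from testis for Rpl10l and Rpl39l and from muscle for Rpl3l. Their main copies were plentiful, with averages of 283 CPM per kb for Rpl10, 136 for Rpl39 and 819 for Rpl3. Rpl24, a ubiquitous large-subunit gene, was at 1 count in all 8 libraries together. The annotation overlaps 47.0% of its exonic bases with the gene model Gm28037, and reads that fall in several genes were not counted under the header options. Rpl35, with 66.2% of its exonic bases overlapped, was nevertheless among the members tested below. The cause of the near absence of Rpl24 was not tested, and its level is not read from these tables. Rpl23a, next lowest at 24.8 CPM per kb, shares 62.3% of its exonic bases, mainly with Tlcd1. Of 80 members, 76 had at least 100 counts in every library. These 76 entered every test of single genes below that used an expression filter, and without the filter 77 to 79 members were tested. Sums of ribosomal protein counts are over all 80 members.

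Members took between 2.56% and 7.72% of all counts, a 3.01-fold range whose highest and lowest library were both dopamine libraries. The share was 7.72% and 3.24% in the datL libraries, 4.12% and 3.37% in datM, 2.56% in Lateral and 4.15% in Medial, against 4.72% and 4.35% in the serotonin libraries. The first datL library was the highest and Lateral the lowest, and the serotonin values lay within the dopamine range. The log2 difference of dopamine from serotonin libraries was -0.20, with p = 0.5 by an exact permutation test (6 against 2 libraries, two-sided as the smaller one-sided p doubled, a form that cannot go below 0.0714). Within lane 8 it was -0.47 for Lateral and Medial against serotonin, where the exact permutation test cannot go below its p of 0.333.

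Other protein-coding genes with short exonic sequence moved with some of the same libraries. The 4843 other coding genes of at most 1444 exonic bases, the median length of the detected members, held 12.9% and 5.54% of counts in datL, 7.67% and 5.49% in datM, 6.35% in Lateral and 7.90% in Medial, against 12.5% and 11.3% in the serotonin libraries. The first datL library was the highest on both measures, while the serotonin libraries stood close to it only for the other short genes. The part of transcript length, fragment selection or cDNA amplification in the ribosomal protein share was not tested.

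**Figure D1:**
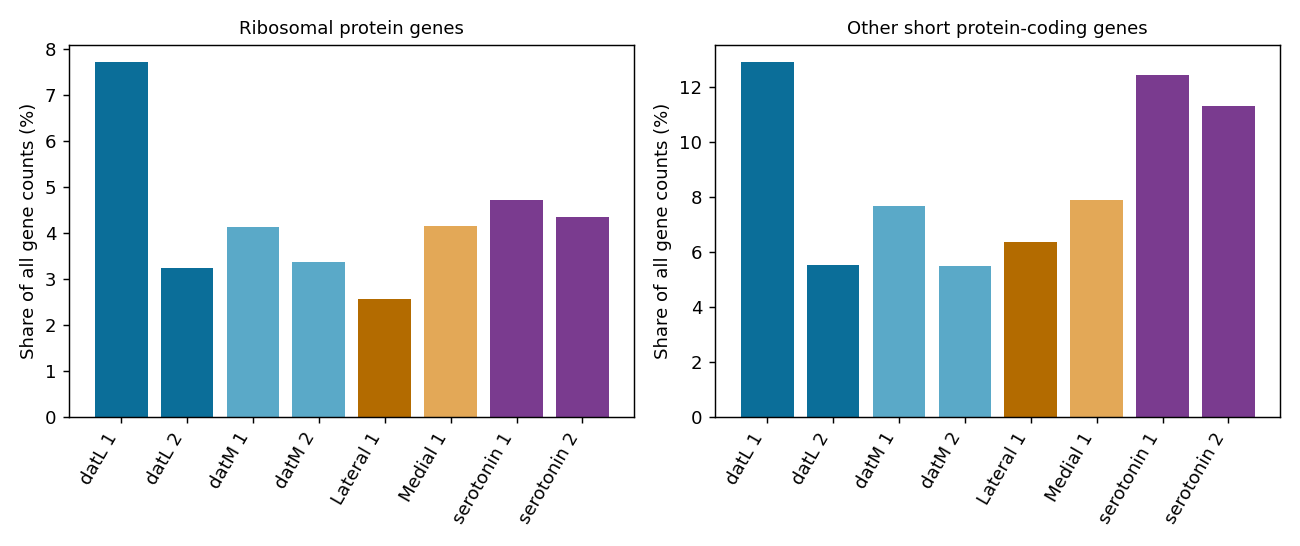
Share of all gene counts (percent, vertical axis) taken by the 80 ribosomal protein genes (left) and by 4843 other protein-coding genes of at most 1444 exonic bases (right), 1 bar per library. The first datL library is highest in both panels, at 7.72% and 12.9%, and Lateral is lowest in the left panel at 2.56%.

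Rpl10a (ENSMUSG00000037805, chr17:28328471-28331032 in the tables' mm10 coordinates) was lower in every dopamine library than in either serotonin library, both as a level and as a share of ribosomal protein counts. Its counts were 8455 and 5993 in datL, 6547 and 4137 in datM, 6190 in Lateral and 4640 in Medial, against 13191 and 11767 in the serotonin libraries. As CPM these are 373, 229, 240.3, 172, 186 and 207 in the same order of dopamine libraries, and 448 and 404 in the serotonin libraries. The groups did not overlap, and the first datL library, whose ribosomal protein share was the highest, came nearest to the serotonin level. Dopamine libraries averaged 234 ± 72.2 CPM (SD, n = 6) and serotonin libraries 426 ± 31.1 CPM (SD, n = 2).

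As a share of ribosomal protein counts, Rpl10a took 0.483% (95% Wilson interval 0.473 to 0.493) and 0.706% (0.688 to 0.724) in datL, 0.583% (0.569 to 0.597) and 0.511% (0.496 to 0.527) in datM, 0.727% (0.709 to 0.745) in Lateral and 0.498% (0.484 to 0.513) in Medial. In the serotonin libraries it took 0.948% (0.932 to 0.965) and 0.928% (0.911 to 0.945). The intervals cover counting error only, and dopamine libraries differed among themselves by more than these intervals. The gap between Lateral, the highest dopamine library, and the lower serotonin library was also wider than their intervals. The log2 difference of the share was -0.70, or 0.615-fold in dopamine relative to serotonin libraries, with an exact permutation p of 0.0714, the smallest that the doubled two-sided form can give. Counted instead over absolute differences, a choice made after seeing the data, 1 of the 28 splits, the observed one, was as large, and the exact permutation p was 0.0357, the smallest of that form. All 6 dopamine libraries lay below both serotonin libraries. Within lane 8 the difference was -0.64, with the smallest possible exact permutation p of 0.333. Set against the median of the other members instead of their sum, the difference was -0.55.

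Rpl10a ranked below the middle of the family in every pull-down. It stood between rank 58 and rank 67 of 80 by CPM per kb in the 8 libraries, which divides by an exonic length of 2349 bases. By CPM it stood between rank 50 and rank 69 in dopamine libraries and at ranks 50 and 48 in the serotonin libraries. Relative to the median other member it was at 0.415 and 0.706 in datL, 0.547 and 0.523 in datM, 0.735 in Lateral and 0.479 in Medial, against 0.819 and 0.812 in the serotonin libraries. Its exons overlap no other gene, but 51.7% of the 100-base windows of its transcripts also occur in 2 pseudogenes, Rpl10a-ps1 and Gm13573. Rpl10a-ps1 had 54 to 165 counts per library and Gm13573 at most 8. Reads that mapped to several places were not counted, so Rpl10a counts come from the remaining windows. How much of Rpl10a came from a tagged copy was not tested.

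**Figure D2:**
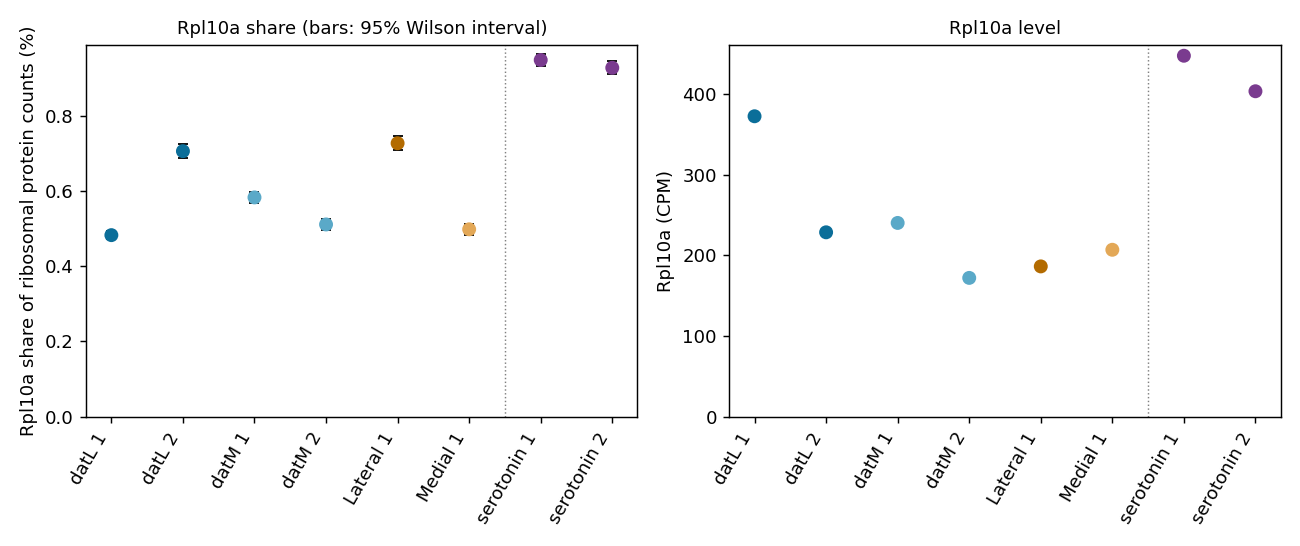
Rpl10a as a share of ribosomal protein counts (left, percent, with 95% Wilson intervals as bars) and as a level (right, CPM) in each library, dopamine libraries left of the dotted line and serotonin libraries right of it. All 6 dopamine points lie below both serotonin points in both panels, between 0.483% and 0.727% against 0.928% and 0.948% in the left panel.

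Across all genes, no ribosomal protein gene passed the test between dopamine and serotonin libraries. With edgeR's quasi-likelihood test over 13806 genes, 0 of 76 tested members had an adjusted p under 0.05, as did 0% of all genes. DESeq2 and limma-voom also called 0 members. By edgeR the 5 listed serotonin neuron genes, with a median log2 fold change of -8.07, had 0 calls as well. The edgeR test thus did not call even differences of that size here. Its 0 calls among members therefore do not show that the family was unchanged. At an unadjusted p under 0.05, edgeR had 0 members higher, where 2.8% of all genes were, and 1 lower, where 1.9% were. The log2 fold change was above 0 for 39 members, beside 58.9% of all genes, and below 0 for 37, beside 41.1%, and its median was 0.01 over members and 0.26 over all genes tested. Leaving out each library in turn, the members' median ran from -0.39, without the first datL library, to 0.075, without Lateral, so its sign is not fixed. It was also below 0 without the first datM library (-0.059) or the second serotonin library (-0.15). The medians of the large and small subunits, -0.02 and 0.03, lay close together. By limma-voom the median was -0.18 over members and -0.64 over all genes, so members then lay above all genes. Shares and medians of all genes given beside lists below are those of edgeR.

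Rpl13, a large-subunit protein, had the lowest fold change. It was at 173 and 43.8 CPM in datL, 78.7 and 30.7 in datM, 174 in Lateral and 137 in Medial, against 484 and 358 CPM in the serotonin libraries. Every dopamine library was below both serotonin libraries, and edgeR gave a log2 fold change of -1.87 (SE 0.59, unadjusted p = 0.0085, adjusted p = 0.603). For Rpl13, 78.9% of its 100-base windows occur in other genes too, so its counts rest on a small part of the transcript.

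Rpl10a came next at -0.71 (SE 0.41, adjusted p = 1.0 by edgeR). Rplp2 (-0.69), the partner of Rplp1 in the stalk, Rps27l (-0.60), a close copy of Rps27 known as a p53 target, and Rps14 (-0.55), a small-subunit protein, completed the lowest 5. At the other end stood Rpsa, the laminin receptor precursor protein of the small subunit. It had 1879 and 976 CPM in datL, 1242 and 1036 in datM, 815 in Lateral and 1394 in Medial, against 732 and 720.1 CPM in the serotonin libraries. Every dopamine library was above both serotonin libraries, and the log2 fold change was 0.90 (SE 0.42, unadjusted p = 0.054, adjusted p = 1.0 by edgeR). Rps28 (0.69), Rpl23a (0.67), Rpl4 (0.57) and Rplp0 (0.49), the scaffold of the stalk, followed.

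In CPM, ranges of dopamine and serotonin libraries did not overlap for 1 member higher in dopamine libraries, Rpsa, and 2 lower, Rpl10a and Rpl13. Over all tested genes the shares were 3.06% higher and 8.59% lower, so 1.32% and 2.63% of members are below the background. The lower count rests on the first datL library: without it, 34 members had no overlap, 44.7% of those tested beside 12.5% of all genes. Without Lateral, or without the second serotonin library, 2 members in place of 1 were higher, 2.63% of those tested beside 3.63% and 5.47% of all genes.

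**Figure D3:**
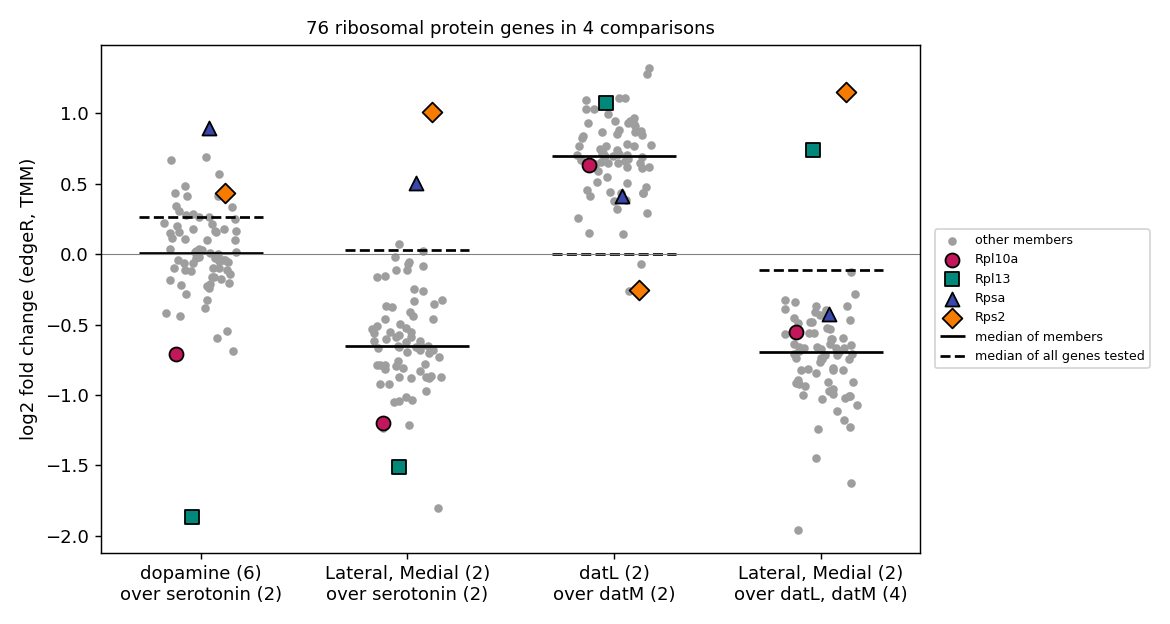
Log2 fold changes (edgeR, TMM-scaled, vertical axis) of the 76 tested members in 4 comparisons, with library numbers in parentheses, 1 point per gene. Solid lines are medians of members and dashed lines medians of all genes tested: 0.01 and 0.26 for dopamine over serotonin, -0.65 and 0.03 for Lateral and Medial over serotonin, 0.70 and 0 for datL over datM, and -0.69 and -0.11 for Lateral and Medial over datL and datM.

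Expressing each gene as a share of ribosomal protein counts takes out the library-wide shift of the family. Shares within a library add to a whole, so they depend on each other. For genes outside the family, the same division adds the family's shift between libraries. The shares of all genes on this scale, here and below, are therefore not a like background, and an excess of members over them is not read as a result. On this scale 13 of 76 members (17.1%) were lower in every dopamine library than in both serotonin libraries, beside 5.49% of all genes scaled in the same way. Among them were Rpl10a, Rpl13, Rpl18, Rpl29, Rpl31, Rpl7a, Rplp2, Rps13, Rps14 and Rps25. A further 6 members (7.89%) were higher in every dopamine library, beside 2.56% of all genes, among them Rpl17, Rpl9, Rplp0, Rps19 and Rpsa. Leaving out each library in turn, the counts ran from 13 to 19 for lower and from 6 to 9 for higher members, and the shares of all genes moved too. Without the first datL library 11.8% of members were higher beside 9.53% of all genes, and 25% were lower beside 6.01%. Without Lateral 18.4% of members were lower beside 12.2% of all genes. With all libraries scaled to their ribosomal protein sum, a choice made after seeing the data, edgeR still called 0 of 76 members, and 2 had an unadjusted p under 0.05, Rpl13 at -1.75 and Rpsa at 0.91.

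The stalk and its neighbours show how members of one structure differed. Rplp2 took 1.19% and 0.733% of ribosomal protein counts in datL, 1.04% and 0.649% in datM, 1.4% in Lateral and 0.770% in Medial, against 1.64% in both serotonin libraries. Rplp0 took 2.53% and 3.73% in datL, 2.91% and 2.71% in datM, 3.26% in Lateral and 2.59% in Medial, against 2.00% and 2.21% in the serotonin libraries. Rplp2 was thus lower and Rplp0 higher in every dopamine library, while Rplp1 overlapped, at 1.32% to 2.30% in dopamine and 1.53% and 1.58% in serotonin libraries. The 3 genes together took 4.68% to 6.44% in dopamine libraries and 5.17% and 5.43% in serotonin libraries.

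Rps14 took 3.30% and 1.86% in datL, 2.85% and 2.10% in datM, 3.13% in Lateral and 2.01% in Medial, against 3.88% and 4.14% in the serotonin libraries. Rpsa took 2.43% and 3.01% in datL, 3.01% and 3.08% in datM, 3.18% in Lateral and 3.36% in Medial, against 1.55% and 1.66% in the serotonin libraries. Neither gene overlapped between the groups, in opposite directions. The balance of the subunits moved little: the large subunit held 57.3% to 61.6% of ribosomal protein counts in dopamine libraries and 58.9% in both serotonin libraries.

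Most members kept a steady share. The standard deviation of the log2 share over the 8 libraries had a median of 0.25 over 76 members, and it was among the smallest for Rpl19 (0.13) and Rpl18 (0.13). Rpl19 ran from 1.06% to 1.33% of ribosomal protein counts in dopamine libraries and stood at 1.18% and 1.29% in serotonin libraries. The standard deviation was largest for Rpl13 (1.28), Rps2 (0.84) and Rpl23a (0.60). Rps2, a small-subunit protein, took 0.147% and 0.170% in datL, 0.327% and 0.233% in datM, 0.452% in Lateral and 0.910% in Medial, against 0.261% and 0.239% in the serotonin libraries. Its windows are 43.8% shared with other genes, and those of Rpl23a are shared to a larger part.

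**Figure D4:**
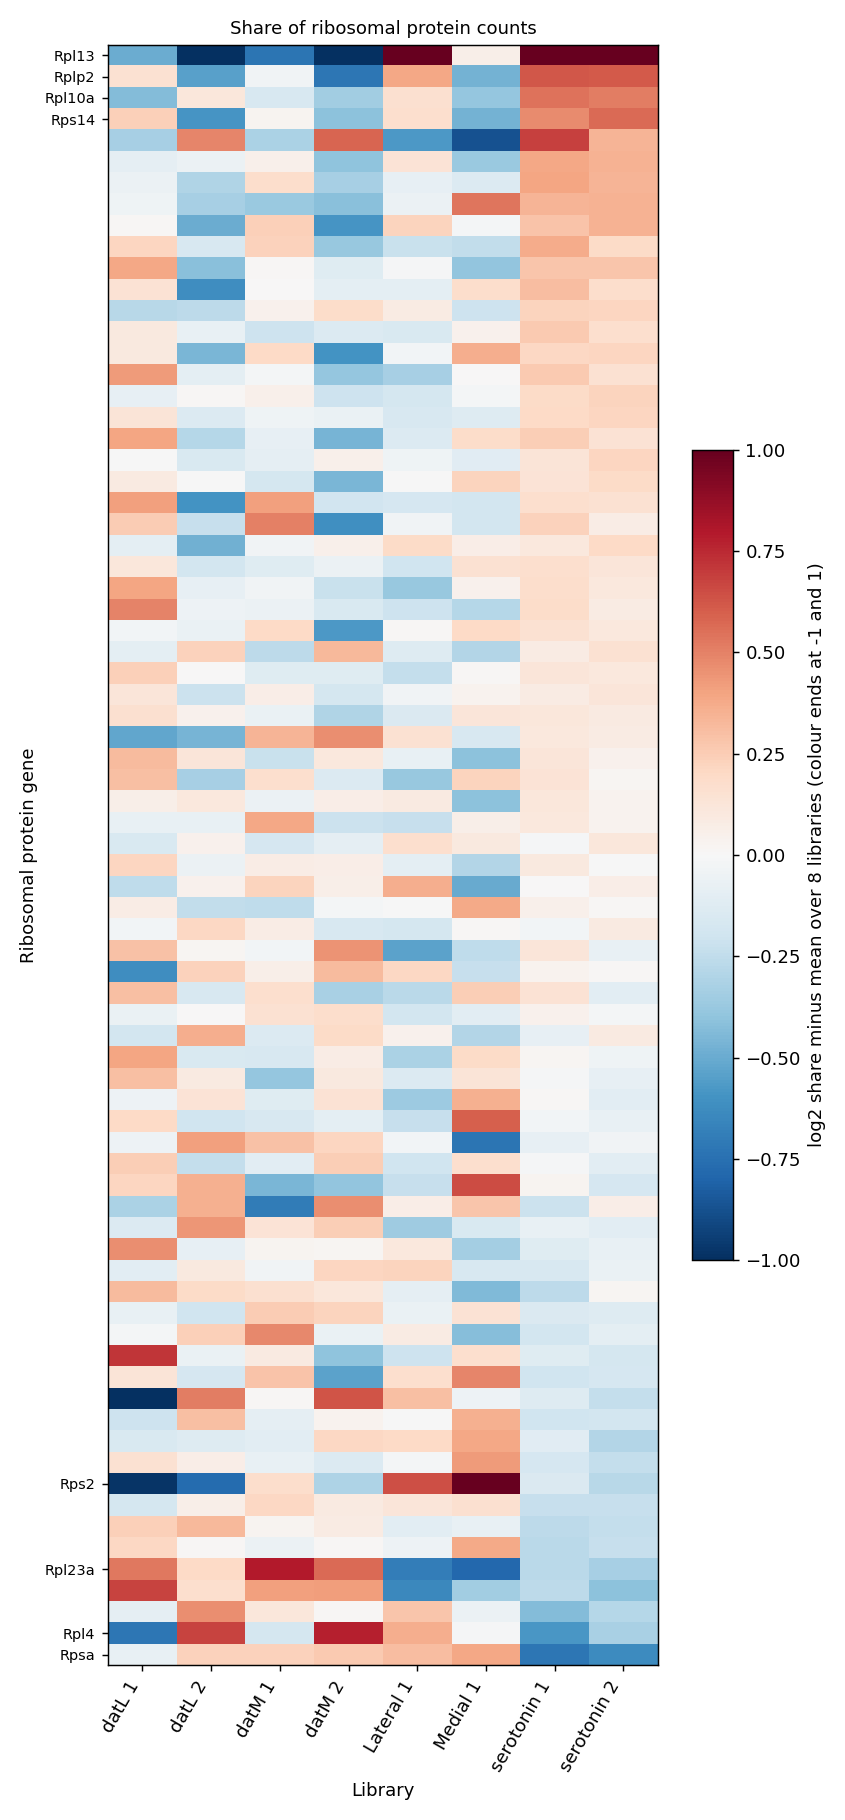
Log2 share of ribosomal protein counts for 76 members (rows, ordered by the dopamine minus serotonin difference, with 8 rows named) in 8 libraries (columns), as the difference from the gene's mean over libraries, red above and blue below. Rpl13, Rplp2, Rpl10a and Rps14 at the top are red in both serotonin libraries, and Rpsa and Rpl4 at the bottom are blue there.

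Over these 76 members, the log2 shares of a pair of libraries correlated across genes at Pearson's r of 0.909 to 0.995 for the 3 pairs of one group and 0.847 to 0.968 for the 25 other pairs. Pairs within the October run were at 0.888 to 0.968, within lane 8 at 0.891 to 0.995, and across the runs at 0.847 to 0.941. Genes of one library share its depth and preparation and are not independent replicates.

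Within lane 8, Lateral and Medial stood below the serotonin libraries for nearly the whole family. Of 76 members, 72 had a log2 fold change below 0, beside 49.1% of all 13400 genes, and the median was -0.65 against 0.03 over all genes. The median depends on single libraries: it was -0.33 without Lateral, where that of all genes was -0.25, and -1.01 without Medial. At an unadjusted p under 0.05 edgeR had 24 members lower (31.6%), beside 6.46% of all genes, and 0 higher, beside 7.34%. By edgeR 0 had an adjusted p under 0.05, beside 0.00746% of all genes higher and 0.0149% lower, and the smallest adjusted p was 0.273. RLE factors and limma-voom also gave 0 calls. The CPM ranges did not overlap for 49 members that were lower and 1 that was higher, beside 24.6% and 25% of all genes. On the share scale 30 were lower and 13 higher, beside 11% and 38.4%. The E18 mark and the neuron type cannot be told apart here.

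The lowest members were Rps27l (-1.81, SE 0.37), Rpl13 (-1.51, SE 0.33), Rps14 (-1.23, SE 0.28), Rplp2 (-1.21, SE 0.28) and Rpl10a (-1.20, SE 0.26). Rps27l was at 33.1 CPM in Lateral and 43.6 CPM in Medial, against 146 and 106 CPM in the serotonin libraries. The highest were Rps2 (1.00, SE 0.53), Rpsa (0.51, SE 0.33), Rpl4 (0.07), Rps18 (0.02) and Rps4x (-0.02). Without Medial, Rps2 was at 0.017 and Rpsa at 0.16, and without Lateral they were at 1.60 and 0.81. DESeq2 called 8 members in this comparison, all lower: Rpl10a (adjusted p = 0.00866), Rpl13 (0.00259), Rplp2 (0.00446), Rps14 (0.000967), Rps27l (0.00482), Rpl7, Rpl26 and Rpl29. These are 10.5% of members, beside 2.28% of all genes lower and 3.6% higher by DESeq2. Without Lateral, edgeR called 10 members lower, 13.2% beside 10.7% of all genes, and 2 higher, 2.63% beside 6.6%, so the share of calls is near the background there. Rpl10a was then at -1.17 (adjusted p = 0.0303 by edgeR). Medial is then alone against the serotonin pair and is assumed to vary as that pair does. This comparison and the one of all dopamine libraries share the serotonin libraries and Lateral and Medial.

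Between datL and datM, 73 of 76 members had a log2 fold change above 0, beside 45.4% of 15177 genes, and 3 had one below 0, beside 43.9%, and the median was 0.70 against 0 over all genes. This rests on the first datL library: without it the median was -0.19, and without the second it was 1.25. By edgeR 0 members had an adjusted p under 0.05, as did 0% of all genes. DESeq2 and limma-voom called 0 members too, where DESeq2 called 4.89% of all genes higher and 5.57% lower and limma-voom 0.784% and 0.817%. At an unadjusted p under 0.05 only Rps12 was higher, beside 3.4% of all genes, and 0 members were lower, beside 3.52%. Non-overlapping CPM ranges occurred for 4 members higher in datL, beside 11.3% of all genes, and 0 lower, beside 13.2%. On the share scale 12 members were higher and 10 lower without overlap, beside 8.26% and 15.9%.

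Rps12, a small-subunit protein, was at 497 and 230.4 CPM in datL, against 167 and 142 CPM in datM, with a log2 fold change of 1.32 (SE 0.56, unadjusted p = 0.0478, adjusted p = 0.597 by edgeR). Rps27 followed at 1.28, with 2072 and 508 CPM in datL, against 718 and 417 CPM in datM. The groups overlapped for Rps27, and the first datL library made the difference. Rpl35a (1.11), Rpl38 (1.10) and Rpl34 (1.09), all of the large subunit, came next. At the low end were Rpl27a (-0.26), Rps2 (-0.26), Rpl3 (-0.07), Rpl15 (0.14) and Rpl4 (0.15). Rpl3, which lies near the peptidyl transferase centre, was at 1028 and 1252 CPM in datL, against 1127 and 1409 CPM in datM. Rpl10a had a log2 fold change of 0.63 (SE 0.50, adjusted p = 0.774 by edgeR).

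The genes at the 2 ends differ in coding length. Across the 76 members the fold change of datL over datM had a Spearman correlation of -0.59 with coding length. The 25 members of shortest coding length (138 to 399 bases) held 28.4% and 21.9% of ribosomal protein counts in datL, 22.5% and 22.1% in datM, 21.2% in Lateral and 25.8% in Medial, against 25.6% and 24.4% in the serotonin libraries. The 26 longest (582 to 1257 bases) held 40.2% and 51.3% in datL, 47.6% and 51.9% in datM, 50.9% in Lateral and 44.5% in Medial, against 42.5% and 43.6% in the serotonin libraries. The first datL library was highest for short members and lowest for long ones, and Lateral was lowest for short ones. In single libraries, the Spearman correlation of a member's log2 share deviation with its coding length ran from -0.63 in the first datL library to 0.68 in Lateral, and it was -0.37 and -0.19 in the serotonin libraries. For the dopamine over serotonin fold change it was 0.18. The split by length was made after the values were seen.

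**Figure D5:**
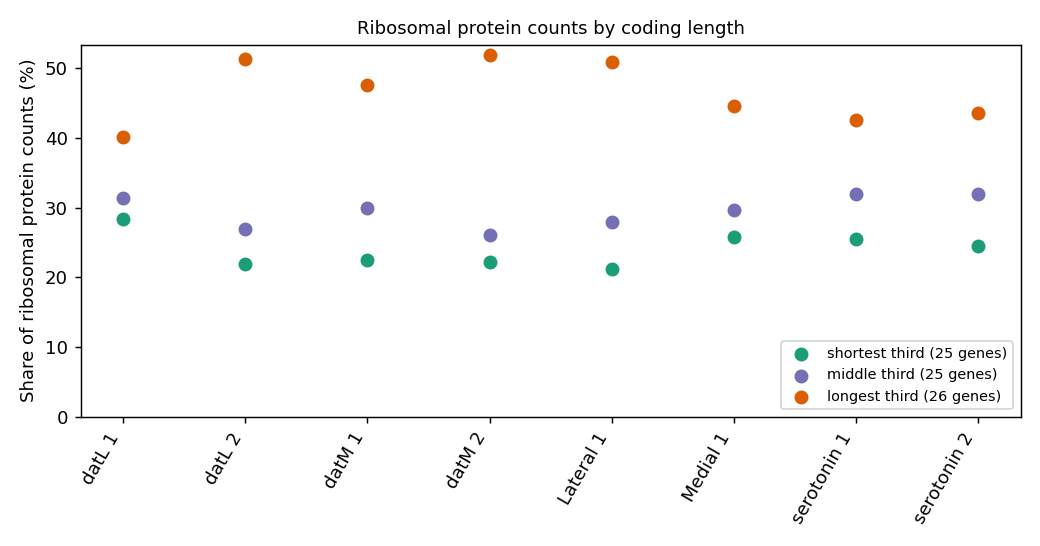
Share of ribosomal protein counts (percent, vertical axis) held by members of short (138 to 399 bases), middle (405 to 576) and long (582 to 1257) coding length in each library. Short members are highest in the first datL library at 28.4% and lowest in Lateral at 21.2%.

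Lateral and Medial together against datL and datM gave lower values for 74 of 76 members, beside 53.8% of 12818 genes, and higher ones for 2, beside 46.2%, with a median of -0.69 against -0.11 over all genes. Without the first datL library the members' median was -0.26 and without Medial it was -1.06. The October run and lane 8, as well as the E18 mark, cannot be told apart from this contrast. By edgeR 0 members had an adjusted p under 0.05, as did 0% of all genes, and DESeq2 and limma-voom called 0 members. The only unadjusted p under 0.05 by edgeR was that of Rpl7 (-1.23, SE 0.48, adjusted p = 0.728), beside 0.663% of all genes lower and 3.81% higher. The CPM ranges did not overlap for 13 members that were lower, 17.1% of those tested beside 2.77% of all genes, and for 0 that were higher, beside 12.5%. On the share scale 10 were lower and 5 higher, beside 0.757% and 18.3%.

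Rpl7, a large-subunit protein, was at 642 CPM in Lateral and 639 CPM in Medial, against 1900.0 and 1099 CPM in datL and 1290 and 996 CPM in datM. Both lane 8 libraries were below all 4 others. The other low members were Rpl23a (-1.95), Rps28 (-1.63), Rps27l (-1.45) and Rps29 (-1.24). Rps28 was at 41.3 CPM in Lateral and 82.2 CPM in Medial, against 310.5 and 91.5 CPM in datL and 138 and 114 CPM in datM, so the groups did not overlap. Rps2 (1.15) and Rpl13 (0.74) were the 2 members above 0, followed by Rps24 (-0.13), Rps4x (-0.29) and Rps18 (-0.32). Leaving out each library in turn, Rps2 ran from 0.19, without Medial, to 1.73, without Lateral, and Rpl13 ran from 0.44, without the second datM library, to 1.47, without the first datL library. Rpl10a was at -0.56 (SE 0.52, adjusted p = 1.0 by edgeR).

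Lateral against Medial, with 1 library each, has no test. The log2 ratio of CPM was below 0 for 72 of the 76 members and above 0 for 4, with a median of -0.77 beside -0.26 over all genes. Among genes with at least 100 counts in both libraries, 20 of 76 members were more than 2-fold lower in Lateral, beside 23.8% of 8996 genes, and 0 were more than 2-fold higher, beside 12.2%. The largest ratios were those of Rpl13, with 174 CPM in Lateral against 137 CPM in Medial, Rplp2, with 359 against 320.0 CPM, and Rpl8, a large-subunit protein, with 758 against 676 CPM. The smallest were those of Rps2, with 116 CPM in Lateral against 378 CPM in Medial, Rps12, with 122 against 362 CPM, and Rpl41, of the large subunit, with 690 against 1986 CPM.

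Genes just outside the rule were read in the same way. Rps3a1, the small-subunit protein that the rule's letters miss, was at 1279 and 574 CPM in datL, 584 and 740.2 in datM, 414 in Lateral and 542 in Medial, against 717 and 648 CPM in the serotonin libraries. Fau, which encodes a fusion of a ubiquitin-like domain with a small-subunit protein, was at 729 and 227 CPM in datL, 380 and 402 in datM, 269 in Lateral and 626 in Medial, against 473 and 414 CPM in the serotonin libraries. Both were highest in the first datL library and overlapped between dopamine and serotonin. Rpl22l1, a copy of Rpl22, was at 109 to 412 CPM in dopamine libraries and at 334 and 271 CPM in serotonin libraries.

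Other genes of translation were read from lists, by their counts beside those of all genes. Of 22 listed translation factors and TOP genes, 15 were above 0 in dopamine over serotonin libraries (68.2% beside 58.9% of all genes), with a median of 0.30 close to the 0.26 of all genes, and with 3 at an unadjusted p under 0.05 and 0 past edgeR's adjusted threshold. They were Pabpc1, the poly(A)-binding protein (1.59, SE 0.47, adjusted p = 0.480 by edgeR), Eef2, the translocase of elongation (1.14, SE 0.38, adjusted p = 0.690), and Eef1a1, which delivers aminoacyl-tRNA (1.00, SE 0.42, adjusted p = 1.0). Eef1a1 was at 2571 to 4484 CPM in dopamine libraries, against 1805 and 1909 CPM in serotonin libraries, without overlap. These 3 were picked from the list for the smallest p.

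Of 75 tested genes of the mitochondrial ribosome, a separate particle, 60 were below 0 in dopamine over serotonin libraries (80% beside 41.1% of all genes), with a median of -0.42 and 1 at an unadjusted p under 0.05, Mrpl54 (-2.93, SE 0.93, adjusted p = 0.603 by edgeR). Mrpl54 was at 3.51 to 60.3 CPM in dopamine libraries, against 225 and 169 CPM in serotonin libraries. Their summed level was 9441 CPM in the first datL library, 3256 to 5259 CPM in the other dopamine libraries, and 8545 and 7888 CPM in the serotonin libraries, so the first datL library was the highest for them as well. Within lane 8, 68 of the 75 were below 0 (90.7% beside 49.1% of all genes), 27 of them at an unadjusted p under 0.05 (36% beside 6.46%), and 0 passed edgeR's adjusted threshold. Of 24 ribosome biogenesis genes, 18 were above 0 in dopamine over serotonin libraries (75% beside 58.9% of all genes, median 0.60), led by Ncl, nucleolin, at 1.21 (SE 0.52, adjusted p = 1.0 by edgeR). Of 14 genes of mTOR signalling, 11 were above 0 (78.6% beside 58.9%, median 0.41), and 0 had an unadjusted p under 0.05.

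Markers of other cells also differed between the groups. The 7 markers of astrocytes and radial glia summed to 1921 to 4920 CPM in dopamine libraries, against 902 and 1189 CPM in serotonin libraries, with all 7 above 0 in the fit. Fabp7 was a large part of the sum, at 2973 of 3562 CPM in the first datL library. Fabp7, Sox9 and Nes were higher in every dopamine library, while Aldh1l1, Hes5, Vim and Slc1a3 overlapped. Slc1a3 was at 6.08 and 29.3 CPM in datL, against 62.4 and 72.9 CPM in the serotonin libraries. The 4 proliferation genes summed to 98.6 to 501 CPM in dopamine libraries, against 25.9 CPM in both serotonin libraries. Only Cdk1 of these was higher in every dopamine library. Mki67 was at 0.191 CPM in the second datL and 1.83 CPM in the second datM library, against 5.46 and 4.08 CPM in the serotonin libraries. The 5 globin genes of red blood cells summed to 98.7 to 718 CPM in dopamine libraries, against 30.4 and 50.4 CPM in serotonin libraries, and 718 is the first datL library. Hba-a1, Hba-a2, Hbb-bs and Hbb-bt were higher in every dopamine library, while Hbb-y was at 0 CPM in Lateral and Medial, against 4.34 and 9.67 CPM in the serotonin libraries. The 6 pan-neuronal genes overlapped, at 11655 to 17700 CPM and at 13791 and 14108 CPM. The 4 oligodendrocyte lineage genes summed to 28.3 to 181 CPM in dopamine libraries, against at most 16.8 CPM in serotonin libraries, but each of them overlapped between the groups as a single gene. Endothelial genes (0.550 to 58.3 CPM against 7.53 and 9.16 CPM) and microglial genes (0 to 13.5 CPM against 1.90 and 0.0343 CPM) were at most 58.3 CPM in any library. The part of RNA from such cells in the ribosomal protein values was not tested, and fewer cells of a type and less RNA per cell cannot be told apart in pull-downs of whole tissue.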

How the data were processed

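The values were raw counts of reads per gene, 1 table per library, as deposited by the authors. Per the submitters' processing notes reads were aligned with STAR to mm10, and per the file headers counted with featureCounts 1.4.3-p1 against GENCODE vM2 without regard to strand. Per the headers' options, reads with several alignments or in several genes were not counted. The labels' protocols give cDNA amplification by PCR, and fragments of about 200 bp enriched over 10 cycles and read as 100 bp single reads, without molecular identifiers stated.

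Symbols, biotypes, coding lengths and transcript windows came from GENCODE M21, matched by gene identifier for 37607 of 38924 genes. CPM is the count over the library total, and CPM per kb divides it by the tables' exonic length. Genes were tested with edgeR 4.0.16 (R 4.3.3, quasi-likelihood, two-sided, TMM, default expression filter, Benjamini-Hochberg adjustment over all genes tested, threshold 0.05) in 4 comparisons. The fit of datL against datM used all 8 libraries in 5 groups, the others only the libraries named. Standard errors derive from the fold change and test statistic. The procedure was tested on simulated counts with far less spread between libraries than these data. That test therefore does not show which changes the procedure can find here. The fitted common biological coefficient of variation was 1.40 for dopamine against serotonin and 0.83 for Lateral and Medial against serotonin. It was 1.20 for datL against datM and 1.45 for Lateral and Medial against datL and datM. The 2 share values were tested by exact permutation of libraries, with the smaller one-sided p doubled.

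Genes named are Rpl10a, the 5 highest and 5 lowest members per kb, the 5 members at each end of every tested comparison, the 3 at each end of Lateral against Medial, the 3 most and least variable shares, the stalk genes, Rpsa, copies and near-members, up to 3 genes of each list by p, and marker genes. Genes listed by non-overlap, and those with start windows, were named after their values were seen. Members and lists were chosen with earlier results of these data known. The alternatives tried were DESeq2 1.42.0, limma-voom (limma 3.58.1), RLE factors, no expression filter, a replicate block, and leaving out each library. Scaling to the ribosomal protein sum and the counts of non-overlap without each library, and a permutation p over absolute differences, were added after seeing the data. Some genes that this rule names are not reported here.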

Additional observations from a re-analysis of the deposited data

Results flagged for a closer look

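In 70 sets of the 6 dopamine libraries (the levels and shares of the named members, and 4 summary shares), 19 had 1 library set apart from the other 5 by more than Dixon's 95% limit of 0.625 of the whole range. Chance flags about 1 set in 20 when sets are picked without regard to their values. That rate does not hold here, since many named members were picked as extremes of these same libraries. The sets are also not independent, since the members move together. In 16 of the 19 sets the library was the first datL library, and in 3 it was Medial.

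The ribosomal protein share of all counts in that library, 7.72%, was above the other 5. So were the levels of Rpl10a at 373 CPM, Rpl14 at 2234 CPM, Rpl18 at 753 CPM, Rpl34 at 898 CPM, Rpl35a at 504 CPM and Rpl38 at 534 CPM. The stalk genes Rplp0 at 1952 CPM, Rplp1 at 1776 CPM and Rplp2 at 916 CPM stood out there too. In the small subunit the same held for Rps14 at 2548 CPM, Rps27 at 2072 CPM, Rps28 at 310.5 CPM and Rps29 at 1044 CPM. As a share of ribosomal protein counts, Rpl34 was high in that library at 1.16% and Rpsa was low at 2.43%.

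In Medial, Rps2 was high at 378 CPM, Rps24 was high at 1.77% of ribosomal protein counts and Rpl14 was low at 2.09%.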

How the results depend on the processing

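No ribosomal protein gene passed the adjusted threshold in any comparison under RLE factors, limma-voom, no expression filter, the replicate block or scaling to the ribosomal protein sum. The exceptions among all alternatives lay in Lateral and Medial against serotonin: 8 members by DESeq2 (10.5% lower, beside 2.28% of all genes), and 0 to 12 when single libraries were left out, 12 without Lateral (13.2% lower beside 10.7%, 2.63% higher beside 6.6%). Over all genes, dopamine against serotonin gave 0 calls by edgeR, with 386 genes higher and 262 lower at an unadjusted p under 0.05, but 125 by DESeq2 and 14 by limma-voom. The median of all genes in that comparison was 0.26 by edgeR, -0.64 by limma-voom and -0.07 with the replicate block, so its sign is not fixed.

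Scaling to the ribosomal protein sum, which sets the family's total equal by construction, put the members' median at -0.12 for Lateral and Medial against serotonin, 0.058 for datL against datM and -0.025 for Lateral and Medial against datL and datM. It moved the median of all genes to 0.43 for dopamine against serotonin. It turned the sign of Rps4x (0.49) within lane 8, of Rpl15 (-0.33) and Rpl4 (-0.24) between datL and datM, and, for Lateral and Medial against datL and datM, of Rpl10a (0.10), Rps18 (0.38), Rps24 (0.55) and Rps4x (0.33). Within lane 8 Rps4x was 0.014 with RLE factors and 0.014 by DESeq2, and Rps18 was -0.065 by limma-voom.

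No shared source is stated for libraries of the same number. Their deviations correlated at 0.098 for datL with datM, 0.015 for datL with serotonin and -0.0029 for datM with serotonin over 15177 genes, so the numbers are not shown to pair libraries. With the replicate block the members' medians were -0.09 for dopamine against serotonin, -0.70 within lane 8, 0.60 for datL against datM and -1.12 for Lateral and Medial against datL and datM, 0 members were called in each, and Rps18 within lane 8 was -0.035.

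Leaving out each library in turn, the members' median ran from -0.39 to 0.075 for dopamine against serotonin, -1.01 to -0.33 within lane 8, -0.19 to 1.25 for datL against datM and -1.06 to -0.26 for Lateral and Medial against datL and datM, members lower without overlap in dopamine CPM from 2 to 34, and those higher from 1 to 2. Signs turned between datL and datM for Rpl15 (-0.10 to 0.30), Rpl27a (-1.02 to 0.19), Rpl3 (-0.24 to 0.060), Rpl34 (-0.11 to 1.70), Rpl35a (-0.20 to 1.74), Rpl38 (-0.080 to 1.70), Rpl4 (-0.13 to 0.48), Rps2 (-0.90 to 0.20) and Rps27 (-0.11 to 1.92). Within lane 8 they turned for Rpl4 (-0.021 to 0.18), Rps18 (-0.48 to 0.41) and Rps4x (-0.44 to 0.32), and for Lateral and Medial against datL and datM for Rps18 (-0.80 to 0.18), Rps24 (-0.79 to 0.44) and Rps4x (-0.68 to 0.068). The cause of these changes was not tested. The log2 difference of the Rpl10a share (-0.70) stayed between -0.77 and -0.65, and its exact permutation p was 0.0714 as a doubled one-sided p and 0.0357 over absolute differences. For the ribosomal protein share these were 0.5 and 0.536.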
